A study of Mus musculus with 28 samples.

Results

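The Fc receptors for immunoglobulin described here are the mouse genes whose names begin with Fcgr and a digit or with Fcer1, in any of the names that a table row carries. By that rule 4 genes were found among the 6658 distinct rows of the deposited tables. Fcgr1, Fcgr2b and Fcer1g are 3 of the 3147 rows of the RNA table, and the same 3 genes with Fcgr3 are 4 of the 6250 rows of the ribosome footprint table. None of the 4 rows carries a second name. The reference gene list holds Fcgr4 and Fcer1a under the same rule, and they are not analysed here.

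The cells were dendritic cells grown from the bone marrow of female C57BL/6J mice aged 6 to 8 weeks in medium with the growth factor GM-CSF. One arm received lipopolysaccharide (LPS, a bacterial cell wall component that is sensed by Toll-like receptor 4) at 100 ng/ml on day 9 of culture, and the other was mock-treated, which the labels define as no stimulation. RNA was sequenced at 1, 2, 4, 6, 9 and 12 h after LPS, at the same times after mock, and at 0 h, with 2 libraries in each of these 13 groups (26 RNA libraries), and 2 further libraries hold ribosome footprints of resting cells. All RNA groups shared an exchange of isotope-labelled amino acid medium at time 0. Loosely attached and floating cells were collected, no sort on a surface marker is described in the labels, and nothing in them says which cultures or animals equal replicate numbers share, so p-values measure the spread between libraries, which may be technical.

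Fc receptors bind the constant part of antibodies and so connect antibody-coated particles to phagocytes. In the mouse, Fcgr1 encodes the high-affinity activating receptor for IgG, and Fcgr3 a low-affinity activating one. Fcer1g encodes the common gamma chain, a signalling subunit with an activating motif (ITAM) that these receptors need at the cell surface and that the high-affinity IgE receptor also uses. Fcgr2b encodes the inhibitory IgG receptor, whose cytoplasmic motif (ITIM) recruits phosphatases that oppose activating signals. In dendritic cells this set takes up immune complexes for antigen presentation.

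Values are in TPM, a measure of transcript abundance per transcript length in which each library sums to 1000000 over the listed rows, so levels of different genes can be set side by side and every value is relative to the other rows. TPM carries no read depth, which is unknown. Tests used limma on log2(TPM + 1), with Benjamini-Hochberg adjustment over all 3147 rows and a threshold of 0.05. Fold changes are LPS minus mock on that scale, with a moderated standard error (SE), and "late" is the mean of 6, 9 and 12 h and "early" the mean of 1 and 2 h. The median row fell with LPS by 0.43 in the late mean and by 0.10 in the early mean, and changes are therefore also given relative to that median. In the late mean 63.2% of all rows passed the threshold, 15.5% higher and 47.7% lower with LPS. After rescaling each library by its median ratio, 825 rows were higher and 816 lower.

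The label of the cells was checked against marker genes. Of 12 dendritic cell markers, 4 had an RNA row and 10 a footprint row, and their summed RNA was 11660 to 20960 TPM in late LPS libraries and 8910 to 17850 TPM in late mock libraries. Of 13 macrophage and monocyte markers, 7 had an RNA row and 12 a footprint row, with summed RNA of 8104 to 28320 TPM in late LPS libraries and 11340 to 39960 TPM in late mock libraries. Of 16 neutrophil markers, 7 had an RNA row, with sums of 1165 to 3043 TPM late with LPS and 2492 to 7193 TPM late with mock. None of the 18 marker rows of these 3 lists was at 0 in any RNA library. Mast cell and basophil markers had no RNA row and 2 footprint rows, Il1rl1 and Prss34, at 14.3 and 16.1 TPM. The B cell list and the NK and T cell list had no row in either table. A missing row does not show that a cell type was absent, since Fcgr3 had no RNA row and a mean footprint level of 649.8 TPM.

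Fcgr1, the high-affinity activating receptor, has its start site on the minus strand of chromosome 3. Its promoter is shown because it is the receptor gene whose RNA rose most with LPS. The window is chr3:96293920-96294219, build GRCm38.p6, from RefSeq, and covers 250 bases before the start site and 50 after it, printed 5′ to 3′ on the strand of the gene. The other 2 receptor genes with an RNA row are shown for comparison, both from the minus strand of chromosome 1, at chr1:171234300-171234599 for Fcer1g and chr1:170976022-170976321 for Fcgr2b. Capitals mark matches to GAS (TTCNNNGAA, a gamma interferon activation site), to a core bound by the myeloid factor PU.1 (GAGGAA) or to an ISRE core (a pair of GAAA repeats with any 2 bases between them, bound by interferon regulatory factors), searched on both strands.
Fcgr1: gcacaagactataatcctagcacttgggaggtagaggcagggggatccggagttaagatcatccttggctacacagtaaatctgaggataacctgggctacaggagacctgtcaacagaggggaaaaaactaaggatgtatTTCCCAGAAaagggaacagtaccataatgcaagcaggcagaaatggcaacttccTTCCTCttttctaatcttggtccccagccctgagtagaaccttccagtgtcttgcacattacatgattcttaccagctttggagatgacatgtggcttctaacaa
Fcer1g: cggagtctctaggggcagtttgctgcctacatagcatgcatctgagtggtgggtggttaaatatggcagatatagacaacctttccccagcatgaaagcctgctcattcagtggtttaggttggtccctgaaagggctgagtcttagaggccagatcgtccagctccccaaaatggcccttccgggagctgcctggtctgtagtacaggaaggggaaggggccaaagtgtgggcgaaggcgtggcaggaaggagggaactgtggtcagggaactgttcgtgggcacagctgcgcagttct
Fcgr2b: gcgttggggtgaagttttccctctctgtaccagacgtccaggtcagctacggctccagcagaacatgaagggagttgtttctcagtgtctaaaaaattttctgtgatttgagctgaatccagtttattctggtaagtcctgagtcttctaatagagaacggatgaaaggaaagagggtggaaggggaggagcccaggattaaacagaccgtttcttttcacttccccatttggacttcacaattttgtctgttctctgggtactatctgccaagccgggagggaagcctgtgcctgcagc

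The Fcgr1 window held 1 GAS match, TTCCCAGAA, whose first base is at -109 counted from the start site (-1 is the base before it). It also held 1 match to the PU.1 core on the other strand, TTCCTC, whose first base is at -55. These matches did not overlap each other. The Fcer1g and Fcgr2b windows held no match to the 3 motifs, and none of the 3 windows held a match to the NF-kB motif. Fcgr3, which had no RNA row, has 2 overlapping windows for its start sites, and in both the same letters matched the PU.1 core, at -6 or -15, and the NF-kB motif, at -152 or -161. Among 32851 windows of the same length, 8.30% held GAS, 28.3% the PU.1 core, 3.44% the ISRE core and 8.46% the NF-kB motif. A match describes the letters of the window and no binding was measured.

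Fcgr1 RNA rose with LPS from 4 h on, 5.33-fold in the late mean, and its early difference from mock cells missed the threshold. At 1 h it had 60.2 and 27.8 TPM in LPS libraries, against 70.6 and 65.5 TPM in mock libraries. At 2 h it had 41.4 and 39.9 TPM in LPS libraries, against 89.6 and 41.9 TPM in mock libraries. Both LPS values lay below both mock values at these times, as they did for 25.3% of all rows at 1 h and 35.4% at 2 h, and the resting cells at 0 h spanned a similar interval, with 90.0 and 39.5 TPM. The early change was -0.65 ± 0.29 (SE) and missed the threshold (limma, adjusted p = 0.133). It passed when LPS 1 h replicate 1 was left out (-0.92, adjusted p = 0.0348) and when mock 2 h replicate 2 was left out (-0.92, adjusted p = 0.0494). No Fc receptor gene passed at 1 h, where 4.07% of rows did by limma's adjusted p (3.27% higher, 0.794% lower) and 572 rows had an unadjusted p under 0.05, or at 2 h, where 14.4% passed (6.39% higher, 8.04% lower) and 839 had an unadjusted p under 0.05. Of the 3 genes, Fcer1g at 1 h was the one with an unadjusted p under 0.05.

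From 4 h on, both LPS libraries stood above both mock libraries for Fcgr1, as they did for 15.5%, 18.8%, 15.6% and 19.1% of all rows at 4, 6, 9 and 12 h. At 4 h it had 135.6 and 107 TPM in LPS libraries, against 61.1 and 48.0 TPM in mock libraries. At 6 h it had 281.6 and 307.5 TPM in LPS libraries, against 61.5 and 47.8 TPM in mock libraries. The LPS values at 4 h were still less than those at 6 h, while the mock values at these times were alike. At 9 h it had 367.2 and 203.7 TPM in LPS libraries, against 51.5 and 49.1 TPM in mock libraries. At 12 h it had 280.9 and 229.3 TPM in LPS libraries, against 43.6 and 50.8 TPM in mock libraries. Over the 6 late libraries of each arm the medians were 281.3 TPM for LPS and 50.0 TPM for mock. The ranges were 203.7 to 367.2 TPM for LPS and 43.6 to 61.5 TPM for mock.

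The late log2 fold change of Fcgr1 was 2.41 ± 0.23 (SE; adjusted p = 1.57e-07), which is 5.33-fold on the TPM + 1 scale and 2.85 relative to the median row. It was the 82nd highest of the 3147 rows, with 2.57% of rows above it. The 3 late times gave nearly equal values of 2.42, 2.42 and 2.41 (SE 0.41 each), with adjusted p of 0.000162 at 6 h, 0.00019 at 9 h and 0.000215 at 12 h. The 4 h value of 1.14 ± 0.41 passed as well (adjusted p = 0.0368), against 37.9% of all rows that passed at 4 h (8.74% higher, 29.2% lower). That call at 4 h rested on both libraries of both groups: without any one of the 4, the value was 0.97 to 1.31 and adjusted p 0.0711 to 0.176. In bulk RNA, a change in RNA per cell and a change in the share of cells that carry the transcript cannot be told apart.

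**Figure D1:**
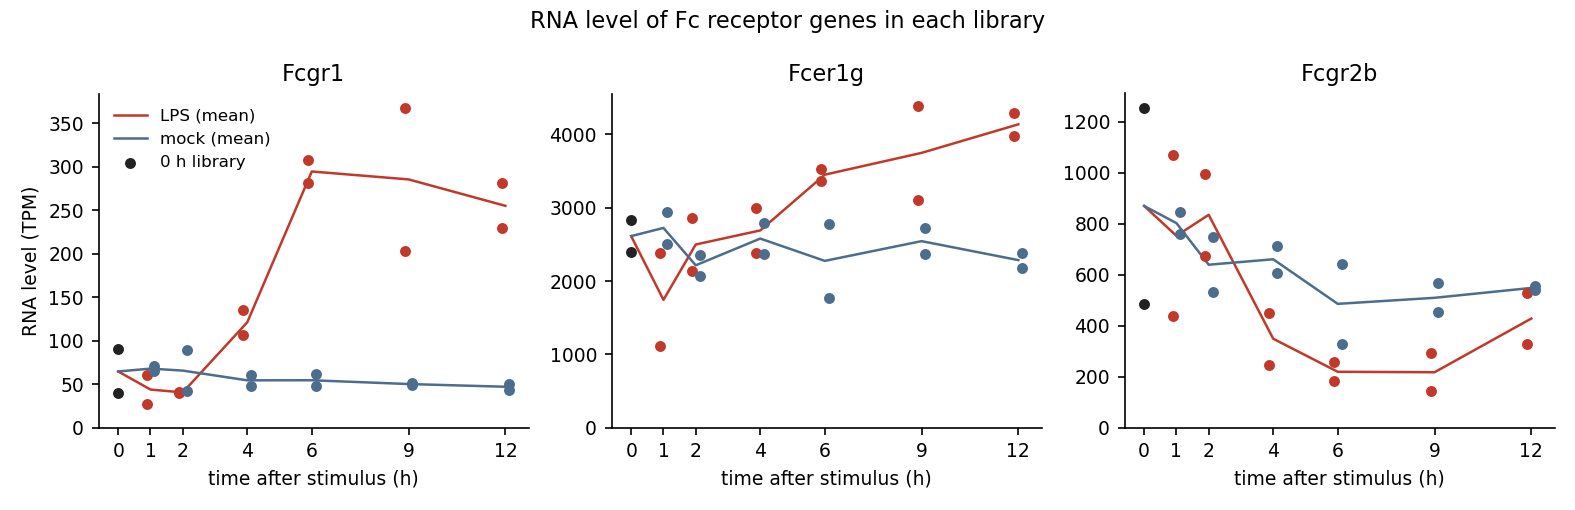
RNA level (TPM, linear axis from 0) of Fcgr1, Fcer1g and Fcgr2b in each library against hours after stimulation. Points are the LPS and mock libraries with the 0 h libraries at the left, and lines join group means, starting from the 0 h mean in both arms; Fcgr1 reached 203.7 to 367.2 TPM late with LPS against 43.6 to 61.5 TPM with mock, while Fcgr2b lay lower with LPS at 4 h and later.

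Fcer1g, the common gamma chain, was the most abundant transcript of the set in every RNA group and moved less. At 1 h it had 2376 and 1111 TPM in LPS libraries, against 2941 and 2506 TPM in mock libraries. At 2 h it had 2860 and 2135 TPM in LPS libraries, against 2356 and 2073 TPM in mock libraries. At 4 h it had 2992 and 2387 TPM in LPS libraries, against 2364 and 2793 TPM in mock libraries. Both LPS libraries were below both mock libraries at 1 h, as in 25.3% of all rows, and the groups overlapped at 2 and 4 h. LPS 1 h replicate 2 held the lowest level of the gene in the series.

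At 6 h Fcer1g had 3533 and 3365 TPM in LPS libraries, against 2777 and 1772 TPM in mock libraries. At 9 h it had 4391 and 3101 TPM in LPS libraries, against 2721 and 2366 TPM in mock libraries. At 12 h it had 4292 and 3978 TPM in LPS libraries, against 2387 and 2183 TPM in mock libraries. At each late time both LPS values exceeded both mock values, as they did for 18.8%, 15.6% and 19.1% of all rows at 6, 9 and 12 h. Over the 6 late libraries of each arm the ranges were 3101 to 4391 TPM for LPS and 1772 to 2777 TPM for mock. The 0 h libraries, at 2829 and 2395 TPM, were within or just above the mock range of the late times.

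Fcer1g rose in the late mean by 0.68 ± 0.17 on the log2 scale (adjusted p = 0.0023), 1.60-fold, and by 1.11 relative to the median row. By single times it passed at 12 h (0.86 ± 0.29, adjusted p = 0.0307), where 36.8% of all rows passed, 10.0% higher and 26.8% lower. Without any one of the 4 libraries at 12 h, the value was 0.79 to 0.92 with adjusted p of 0.0758 to 0.135. At 6 h it was 0.64 (adjusted p = 0.0952) and at 9 h 0.54 (adjusted p = 0.156), both short of the threshold. After rescaling each library to the median ratio of its rows, both passed, at 1.06 (adjusted p = 0.00788) and 0.97 (adjusted p = 0.0154). The 6 h value also passed without mock 6 h replicate 1 (0.96, adjusted p = 0.0396). At 1 h the value was -0.74 (adjusted p = 0.181), and it passed without LPS 1 h replicate 1 (-1.29, adjusted p = 0.00868). The early mean of -0.29 (adjusted p = 0.372) passed without that same library, at -0.56 (adjusted p = 0.0353).

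Fcgr2b, the inhibitory receptor, fell in the late mean, and by single times it passed at 9 h. At 1 h it had 1068 and 437.4 TPM in LPS libraries, against 845 and 760 TPM in mock libraries. At 2 h it had 995.5 and 674.5 TPM in LPS libraries, against 747.8 and 530.8 TPM in mock libraries. The groups overlapped at both times, and the 2 libraries of 0 h lay far apart, at 1255 and 484.3 TPM. At 4 h it had 450.6 and 247.9 TPM in LPS libraries, against 714.4 and 607.1 TPM in mock libraries. At 6 h it had 257.1 and 182.3 TPM in LPS libraries, against 642.9 and 329.1 TPM in mock libraries. Both LPS libraries were below both mock libraries at these times, as in 58.2% of all rows at 4 h and 50.4% at 6 h.

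At 9 h Fcgr2b had 291.5 and 144.3 TPM in LPS libraries, against 565.9 and 453.4 TPM in mock libraries. At 12 h it had 528.3 and 328.6 TPM in LPS libraries, against 539.6 and 557.3 TPM in mock libraries. Both LPS libraries were below both mock libraries again, as in 47.9% of all rows at 9 h and 49.3% at 12 h. The margin at 12 h was narrow, and the LPS libraries were higher than those at 9 h with the same number. Over the late times the medians were 274.3 TPM with LPS and 548.5 TPM with mock, and the ranges overlapped, at 144.3 to 528.3 TPM with LPS and 329.1 to 642.9 TPM with mock.

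Fcgr2b fell in the late mean by 0.93 on the log2 scale (SE 0.29, adjusted p = 0.01, 95% interval -1.53 to -0.32), to 0.526 of the mock level. Relative to the median row the value was -0.49, and 77.6% of all rows had a higher value. Median-ratio rescaling ended the call (-0.52, adjusted p = 0.127) and quantile normalization kept it (-0.94, adjusted p = 0.0104). By single times it passed at 9 h (-1.30 ± 0.50, adjusted p = 0.0471), where 40.1% of all rows passed, 10.1% higher and 30.0% lower. That call was lost without mock 9 h replicate 1 (-1.14, adjusted p = 0.196), mock 9 h replicate 2 (-1.46, adjusted p = 0.0885) or LPS 9 h replicate 2 (-0.80, adjusted p = 0.311). It likewise ended with median-ratio rescaling (-0.87, adjusted p = 0.192) and with quantile normalization (-1.32, adjusted p = 0.053). The values at 4, 6 and 12 h were -0.98 (adjusted p = 0.133), -1.08 (adjusted p = 0.0933) and -0.40 (adjusted p = 0.571), and the 12 h value equalled that of the median row (-0.39). Without 1 library they were -1.41 to -0.55 at 4 h, -1.57 to -0.60 at 6 h and -0.74 to -0.05 at 12 h. A share of 9.12% of the 30-base words of Fcgr2b transcripts (each mate of an RNA read pair was 30 bases long) also occurred in transcripts of other genes, 6.56% in Fcgr3, whose own words were shared at 14.6%, so the split of reads between Fcgr2b and Fcgr3 is uncertain. For Fcgr1 and Fcer1g no word was shared.

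**Figure D2:**
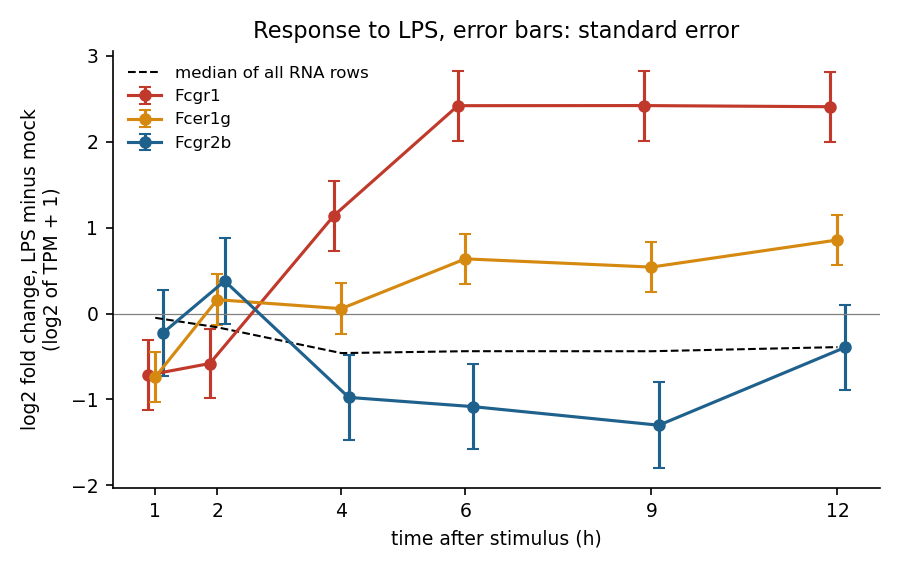
LPS minus mock log2 fold change of log2(TPM + 1) against hours after stimulation for the 3 receptor genes. Points are the fitted values, error bars are moderated standard errors, and the dashed line is the median of all 3147 rows; Fcgr1 stayed near 2.4 at 6, 9 and 12 h, Fcer1g was between 0.54 and 0.86 there, and Fcgr2b was below 0 at these times.

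All 3 receptor genes with an RNA row thus passed the late test, 2 higher and 1 lower, where 63.2% of all rows passed. At 6 h Fcgr1 was the 1 gene of 3 that passed, against 41.2% of all rows (11.2% higher). The joint F test over the 6 times passed for Fcgr1 (adjusted p = 8.39e-06) and Fcer1g (adjusted p = 0.0258), as it did for 57.2% of rows, and missed for Fcgr2b (adjusted p = 0.0743). The Fcer1g call was lost without mock 1 h replicate 1 (adjusted p = 0.0588), LPS 6 h replicate 1 (0.0502), mock 12 h replicate 2 (0.0645) or LPS 12 h replicate 1 (0.0588). Fcgr2b passed without LPS 1 h replicate 1 (adjusted p = 0.0327), LPS 1 h replicate 2 (0.046), mock 6 h replicate 2 (0.0481) or LPS 9 h replicate 1 (0.0412). In the early mean none of the 3 passed, where 18.1% of rows did by limma's adjusted p (8.39% higher, 9.72% lower) and 990 had an unadjusted p under 0.05, Fcgr1 among them.

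The change of the LPS effect over time was tested as the late minus the early fold change. For Fcgr1 it was 3.06 ± 0.37 (adjusted p = 1.36e-05), the 14th highest of all rows, with 0.413% of rows above it. For Fcer1g it was 0.97 ± 0.27 (adjusted p = 0.0122), and for Fcgr2b -1.001 ± 0.45 (adjusted p = 0.108). In this contrast 30.4% of rows passed, 8.17% higher and 22.2% lower. The Fcgr2b value passed without LPS 1 h replicate 2 (-1.32, adjusted p = 0.0382).

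The 13 group means were put in order for each gene, and a gap marks neighbouring groups whose libraries did not overlap. Gaps were not counted over all rows, so their number is only a description of these genes. For Fcgr1 the highest means were LPS 6 h (294.6 ± 18.3 TPM, SD, n = 2), LPS 9 h (285.4 ± 115.6) and LPS 12 h (255.1 ± 36.5), whose libraries overlapped. A gap followed before LPS 4 h (121.3 ± 20.2), and a second gap before mock 1 h (68.1 ± 3.59). The other 8 groups overlapped from neighbour to neighbour, down to LPS 1 h (44.0 ± 22.9) and LPS 2 h (40.7 ± 1.09). For Fcer1g the order was LPS 12 h (4135 ± 222), LPS 9 h (3746 ± 912) and LPS 6 h (3449 ± 119), then the single gap, then mock 1 h (2723 ± 307) and 9 further groups down to LPS 1 h (1743 ± 895). For Fcgr2b no neighbours were separate: 0 h (869.8 ± 545) and LPS 2 h (835 ± 227) were at the top, and LPS 6 h (219.7 ± 52.9) and LPS 9 h (217.9 ± 104) at the bottom.

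Part of the spread followed the replicate number. Replicate 1 was higher than replicate 2 in 11 of 13 groups for Fcgr1, in 12 for Fcer1g and in 12 for Fcgr2b. Over all RNA rows at 0 h, the median log2 difference of replicate 1 minus replicate 2 was 0.17. The count of groups was not made for other rows, so it cannot be called a trait of these genes. In 0 h replicates 1 and 2, where Fcgr2b was 1255 and 484.3 TPM, the summed macrophage and monocyte markers were 57880 and 16680 TPM. Dendritic cell markers summed to 19760 and 9658 TPM in these libraries, and neutrophil markers to 3200 and 3173 TPM. Lyz2 alone averaged 35700 TPM at 0 h and made up most of the macrophage and monocyte sum. The part of these markers in the receptor values was not tested.

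Because each ratio is formed inside a library, it is free of the scaling of that library. The ratio of Fcgr1 to Fcgr2b reached 1.10 and 1.69 in LPS libraries at 6 h, against 0.0957 and 0.145 in mock libraries. At 9 h it was 1.26 and 1.41 in LPS libraries, against 0.0911 and 0.108 in mock libraries. At 12 h it was 0.532 and 0.698 in LPS libraries, against 0.0808 and 0.0912 in mock libraries. By these values activating Fcgr1 was the more abundant of the pair in the LPS libraries of 6 and 9 h, and inhibitory Fcgr2b in those of 12 h and in every mock library. In LPS 6 h replicate 1 the levels were close, at 281.6 TPM for Fcgr1 and 257.1 TPM for Fcgr2b. The uncertain split of reads between Fcgr2b and Fcgr3 applies to every RNA ratio that holds Fcgr2b. At 4 h the ratio was 0.301 and 0.432 in LPS libraries, against 0.0856 and 0.0791 in mock libraries. At 2 h it was 0.0416 and 0.0592 in LPS libraries, against 0.1198 and 0.0790 in mock libraries, and 0 h libraries had 0.0717 and 0.0816. At 1 h it was 0.0563 and 0.0636 in LPS libraries, against 0.0835 and 0.0862 in mock libraries. The LPS libraries therefore lay under both mock libraries at 1 and 2 h and above both from 4 h on. These ratios are a description with no test, and no share over other pairs of rows was computed.

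**Figure D3:**
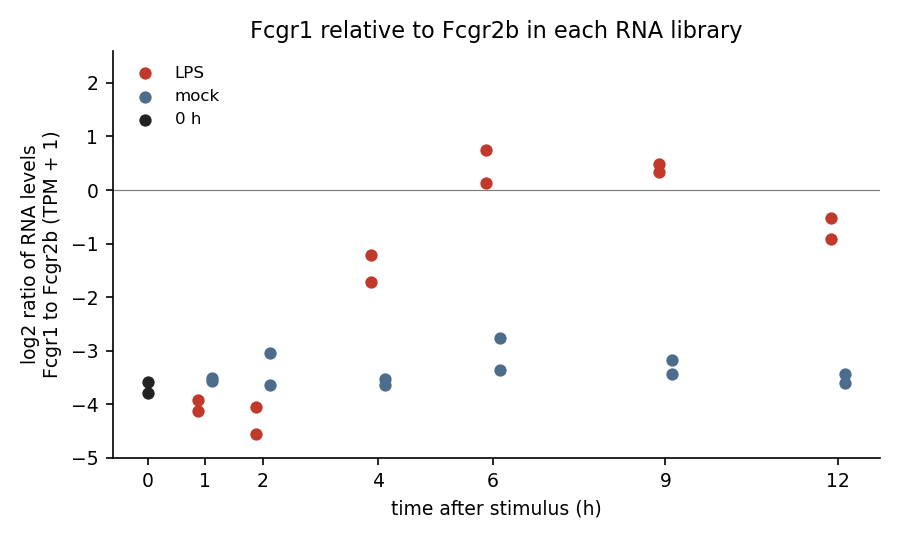
Log2 ratio of Fcgr1 to Fcgr2b (TPM + 1 of each) in every RNA library against hours after stimulation. Points are single libraries, and the line at 0 marks equal levels; the LPS libraries of 6 and 9 h lie between 0.13 and 0.75, and those of mock at these times between -3.43 and -2.76.

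The gamma chain exceeded Fcgr1 in every library, by a smaller factor with LPS from 4 h on. At 1 h the TPM ratio of Fcer1g to Fcgr1 was 39.5 and 39.9 in LPS libraries, against 41.7 and 38.3 in mock libraries. At 2 h it was 69.0 and 53.5 in LPS libraries, against 26.3 and 49.5 in mock libraries. At 4 h it was 22.1 and 22.3 in LPS libraries, against 38.7 and 58.2 in mock libraries. The groups thus overlapped at 1 h, LPS was above mock at 2 h and below it at 4 h. In the late times it was 10.9 to 17.4 in the 6 late LPS libraries, against 37.1 to 54.8 in the 6 late mock libraries. The ratio of Fcer1g to Fcgr2b was 8.12 to 21.5 in late LPS libraries, against 3.92 to 5.39 in late mock libraries. The late ranges did not overlap for either ratio, and no share over other pairs of rows was computed.

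Culture without LPS was examined as the mean of mock 9 and 12 h minus 0 h. No row of the table passed by limma's adjusted p, and 86 of 3147 had an unadjusted p under 0.05, none of them an Fc receptor gene. The values were -0.29 ± 0.35 for Fcgr1, -0.11 ± 0.25 for Fcer1g and -0.56 ± 0.43 for Fcgr2b. Without 0 h replicate 1 they were 0.29, 0.01 and 0.12, so the sign of each depended on that library. The 95% intervals were -1.04 to 0.46 for Fcgr1, -0.65 to 0.43 for Fcer1g and -1.48 to 0.35 for Fcgr2b, which leaves room for changes of either sign.

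Ribosome footprints, the stretches of mRNA that ribosomes protect from nuclease, gave levels for 4 receptor genes in resting cells. Fcer1g had 2088 and 2214 TPM, the 68th highest mean of 6250 rows. Fcgr2b had 861.9 and 868.7 TPM and ranked 156th. The low-affinity activating receptor Fcgr3 had 661.0 and 638.6 TPM and ranked 218th. Fcgr1 had 62.6 and 72.2 TPM and ranked 1709th. In each of the 2 libraries the order was therefore gamma chain, inhibitory receptor, Fcgr3 and Fcgr1, and the RNA at 0 h had the same order for its 3 genes, in ranks 71, 191 and 1768 of 3147. For Fcgr1, Fcgr2b and Fcer1g the footprint libraries lay closer together than the 0 h RNA libraries, and the share of all rows with this order was not computed.

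Footprints were compared with 0 h RNA over the 2739 rows in both tables, with the median row of every library set to 0. Fcgr1 was 1.00 ± 0.37 higher in footprints on the log2 scale (adjusted p = 0.0874), Fcgr2b 0.98 ± 0.42 (adjusted p = 0.121) and Fcer1g 0.56 ± 0.21 (adjusted p = 0.0916). None of the 3 passed, against 26.7% of rows by limma's adjusted p; 1239 rows had an unadjusted p under 0.05, among them Fcgr1 and Fcer1g. Without 0 h RNA replicate 1 all 3 passed (Fcgr1 1.52, Fcgr2b 1.60, Fcer1g 0.61), and without 0 h RNA replicate 2 Fcgr1 (0.49, adjusted p = 0.0204) and Fcer1g (0.51, adjusted p = 0.0106) did. With 1 RNA library, the spread came from the footprint libraries. Without centring the values were 0.17 for Fcgr1 (adjusted p = 0.769), 0.15 for Fcgr2b (adjusted p = 0.818) and -0.28 for Fcer1g (adjusted p = 0.344), so their size depends on the centring. The rows that passed were then 59 higher and 1232 lower, against 374 higher and 356 lower with centring. The footprints and the RNA are different assays, and no label ties their cultures.

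**Figure D4:**
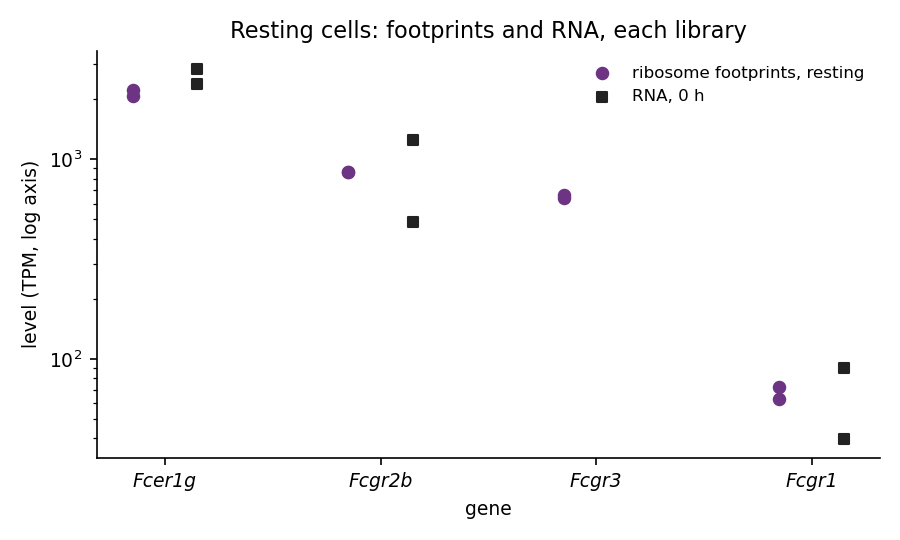
Levels of the Fc receptor genes (TPM, log axis) in the 2 footprint libraries of resting cells and the 2 RNA libraries of 0 h. Points are single libraries; Fcgr3 has a footprint row only, and the footprint libraries of Fcgr2b are 861.9 and 868.7 TPM beside RNA libraries of 1255 and 484.3 TPM.

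The rows most like each receptor gene were found by Pearson's r of log2(TPM + 1) over the 13 group means, which share libraries and scaling. For Fcgr1 they were 1600014C10Rik (r = 0.98), Dck, which encodes deoxycytidine kinase (r = 0.98), and Psma5, which encodes a proteasome subunit (r = 0.96). For Fcer1g they were Erap1, which encodes an aminopeptidase that trims peptides for MHC class I (r = 0.96), Sgpl1;mKIAA1252 (r = 0.95) and the endosomal GTPase gene Rab5c (r = 0.94). For Fcgr2b they were AK163149;Tcp1 (r = 0.97), Mdh2 (r = 0.95) and Rad23b (r = 0.94). An r above 0.9 was found for 69 rows with Fcgr1, 18 with Fcer1g and 43 with Fcgr2b. Between the receptor genes, r was 0.87 for Fcer1g and Fcgr1, -0.61 for Fcer1g and Fcgr2b, and -0.85 for Fcgr1 and Fcgr2b.

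The other genes of the pathway are given by lists, with late log2 fold changes and mean TPM of the 6 late libraries of each arm. The counts of each list can be set beside those of all rows: 487 were higher and 1502 lower as deposited, 825 higher and 816 lower with median ratios, and 701 higher and 977 lower with quantiles. Of 11 other Fc receptor genes listed, Trim21 had an RNA row and Fcgrt and Fcrls had footprint rows. Trim21, the cytosolic antibody receptor and ubiquitin ligase, averaged 62.7 TPM late with LPS and 5.58 TPM late with mock (3.27, adjusted p = 2.87e-09). Fcgrt, the neonatal Fc receptor, and Fcrls had mean footprints of 30.2 and 194.9 TPM in resting cells.

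Kinases, phosphatases and adaptors that act at the receptor tails moved in both directions. Of 23 listed, 14 had an RNA row, of which 5 rose and 5 fell late, against 15.5% of all rows higher and 47.7% lower (median 0.15, against -0.43 over all rows). Dok2, an inhibitory adaptor, fell by 2.97, with 52.9 TPM in LPS and 421.4 TPM in mock libraries on average, while its relative Dok1 rose by 1.78 (277.8 TPM with LPS, 79.8 TPM with mock). The Src family kinase gene Fgr fell by 1.86 (34.0 TPM with LPS, 126.3 TPM with mock). Ptprc, the CD45 phosphatase, had 0.19 (adjusted p = 0.111). It had the highest mean of the list over all RNA libraries, though Dok2 was higher in late mock libraries. Inpp5d;Ship, the lipid phosphatase that binds the tail of Fcgr2b, fell by 1.69, and Syk;Sykb, the kinase that binds the phosphorylated gamma chain, rose by 0.53 (adjusted p = 0.000335). Inpp5d;Ship and Syk;Sykb were named after their values were seen, for those roles. After median-ratio rescaling 8 rose and 3 fell, and after quantile normalization 7 rose and 4 fell.

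Of 39 genes that signal downstream of Syk, 23 had an RNA row, of which 7 rose and 6 fell, against 15.5% of all rows higher and 47.7% lower (median 0.03). Marcksl1, which encodes a membrane-bound protein kinase C substrate, rose by 2.66 (1223 TPM with LPS, 184.1 TPM with mock). Malt1, the paracaspase of the Card9 and Bcl10 complex, rose by 1.77 (693.1 TPM with LPS, 209.4 TPM with mock), and the MAP kinase kinase gene Map2k1 by 1.72 (206.5 TPM with LPS, 60.7 TPM with mock). After median-ratio rescaling 12 rose and 4 fell, and after quantile normalization 8 rose and 4 fell.

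The actin machinery of phagocytosis had 27 rows of 34 listed, with 3 higher, 6 lower and 18 short of the threshold, against 15.5% of all rows higher and 47.7% lower (median -0.11). Myo1e and Gsn, which encode a class I myosin and the actin-severing gelsolin, fell by 1.56 and 1.41, and the myosin gene Myo1g rose by 0.89 (adjusted p = 0.0139). Arpc2, an Arp2/3 subunit with the highest mean of the list over all RNA libraries, had -0.23 (adjusted p = 0.52) at 2612 TPM with LPS and 2884 TPM with mock. The direction of this list depended on scaling: after median-ratio rescaling 10 rose and 2 fell (median 0.30), and after quantile normalization 4 rose and 3 fell (median -0.07).

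All 6 NADPH oxidase genes had an RNA row, and 3 rose and 2 fell, against 15.5% of all rows higher and 47.7% lower (median 0.25). Cybb, the catalytic subunit, rose by 0.54 (adjusted p = 0.0392; 1781 TPM with LPS, 1213 TPM with mock), and the cytosolic subunit gene Ncf4 by 0.54 (adjusted p = 0.0236). Cyba, the partner of Cybb in the membrane, fell by 0.41 (adjusted p = 0.0132), a call that neither scaling kept (adjusted p = 0.988 with median ratios and 0.155 with quantiles).

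Of 32 other receptors that signal through an ITAM or ITIM, 3 had an RNA row. Of these 1 rose and 1 fell late, against 15.5% of all rows higher and 47.7% lower. Clec4n, which encodes dectin-2, a lectin receptor that uses the gamma chain, fell by 1.16 (adjusted p = 0.00124), with 1749 TPM in LPS and 3881 TPM in mock libraries on average. Clec4d;Mcl, a related lectin receptor gene, rose by 0.76 (adjusted p = 0.0156), and Cd300lf had 0.19 (adjusted p = 0.5). Each of the scalings also gave 1 rise and 1 fall. Clec4n was then -0.75 with median ratios and -0.99 with quantiles, and Clec4d;Mcl 1.17 and 0.73.

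**Figure D5:**
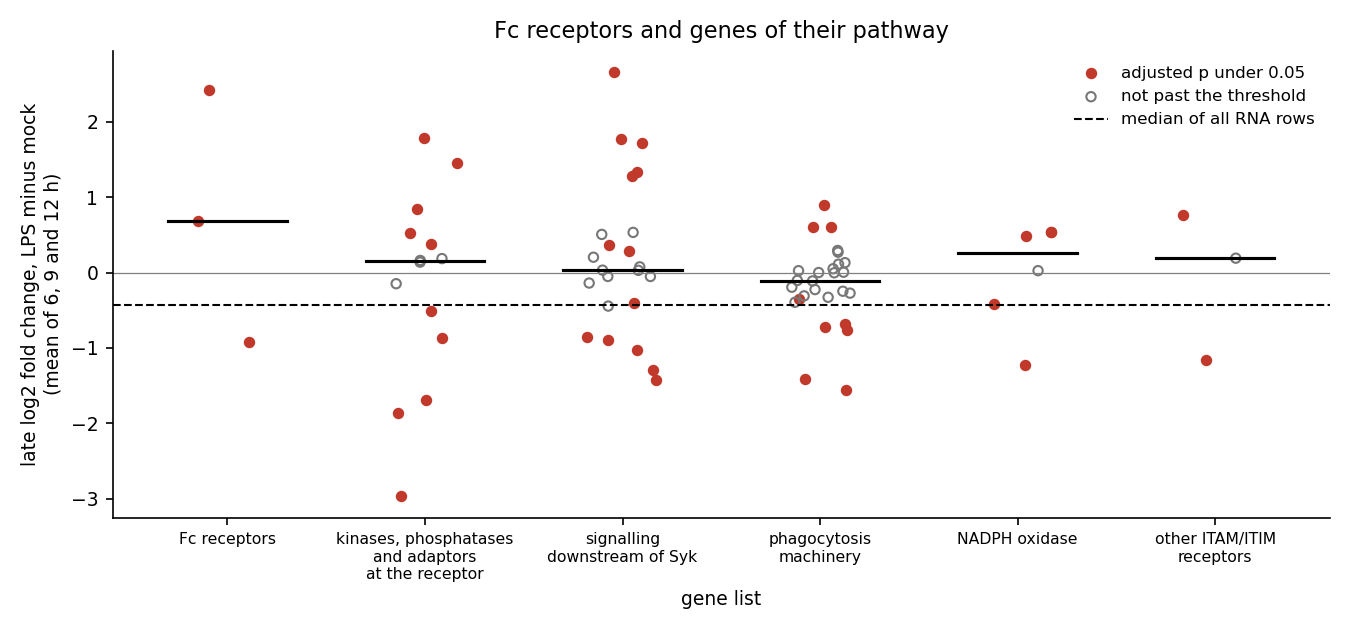
Late LPS minus mock log2 fold change of each measured gene in 6 groups, with the 3 Fc receptor genes at the left. Filled points passed an adjusted p of 0.05, bars are list medians and the dashed line is the median of all RNA rows at -0.43; each of the 6 groups holds genes on both sides of 0.

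The cell type markers were tested in the same late contrast. Of the 7 macrophage and monocyte rows 2 rose and 2 fell late, of the 7 neutrophil rows 1 rose and 2 fell, and of the 4 dendritic cell rows none passed, against 15.5% of all rows higher and 47.7% lower. After median-ratio rescaling 3 macrophage and monocyte rows rose and 1 fell, 1 neutrophil row rose and 1 fell, and 2 dendritic cell rows rose, H2-Aa (adjusted p = 0.00858) and H2-Ab1 (adjusted p = 0.0433). After quantile normalization none of the 4 dendritic cell rows passed (limma, adjusted p = 0.131 for H2-Aa and 0.197 for H2-Ab1). With that scaling 2 macrophage and monocyte rows rose and 3 fell, and 1 neutrophil row rose and 2 fell. The 6 late LPS libraries had summed neutrophil markers of 1165 to 3043 TPM, against 2492 to 7193 TPM in late mock libraries. Most of these sums came from S100a8 and S100a9, which averaged 1736 and 1919 TPM late with mock and 584.9 and 725.7 TPM late with LPS. Lcn2 rose by 2.06, and the other neutrophil rows missed the threshold, so the sums do not describe the whole list. The part of the cell type markers in the receptor results was not tested.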

How the data were processed

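RNA values were deposited by the authors in TPM. The submitters' processing notes name Bowtie 0.12.7, RSEM 1.2.3 and the build mm9. For footprints the notes name Bowtie2 and TopHat2 (versions not given in the sources used here); that table was taken as TPM because its deposited columns sum to 1000000. The 4 h samples are described with a column of another hour; titles, time fields and column names give 4 h. The 0 h columns occur under both arm names with identical values, and each library was used once.

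A filter of at least 1 TPM in at least 2 libraries kept all 3147 rows and every receptor row. Models were fitted with limma 3.58.1 (R 4.3.3) with a variance trend, 1 mean per group and 13 residual degrees of freedom, on log2(TPM + 1), and were tested on simulated data. The log2 scale with a pseudocount of 1 TPM understates changes of low rows. Shared words were counted in GENCODE transcripts, by Python 3.11.15, which also made the figures (matplotlib 3.10.9). Alternatives were pseudocounts of 0.1 and 5 TPM, no filter, at least 10 TPM, 2 scalings, a replicate block, the compared groups alone and leaving out each library.

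Genes named are the receptor rows, the 3 rows most correlated with each, and from each list the 3 with the largest late change and the most abundant; Inpp5d;Ship, Syk;Sykb and H2-Aa were added after their values were seen. One list gene chosen by this rule is not reported here. The members and lists were chosen with earlier results of these data known.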

Additional observations from a re-analysis of the deposited data

Results flagged for a closer look

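The LPS effect differed between the late and the early times for a pair of receptor genes, by a test of the difference itself in the limma fit over all rows. For Fcgr1 the late minus early log2 fold change was 3.06 (SE 0.37, adjusted p = 1.36e-05), with both LPS libraries below both mock libraries at 1 and 2 h (25.3% and 35.4% of all rows) and above them at 6, 9 and 12 h (18.8%, 15.6% and 19.1% of all rows). For Fcer1g it was 0.97 (SE 0.27, adjusted p = 0.0122), with LPS below mock at 1 h, overlapping at 2 h and above at 6, 9 and 12 h. In the same contrast 30.4% of all rows passed the threshold, and 8.17% of all rows did so in the direction of these genes.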

How the results depend on the processing

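Of 558 alternatives to 36 receptor results, 498 kept direction and side of the threshold, 19 lost a call, 29 gained one and 12 changed sign; where no value shows the cause, the cause was not tested. The late rises of Fcgr1 (2.27 to 2.82) and Fcer1g (0.57 to 1.09), and their late minus early values (2.79 to 3.39 and 0.69 to 1.29), kept direction and call under every alternative run. Median-ratio rescaling gave Fcer1g calls at 6 h (1.06) and 9 h (0.97) and ended those of Fcgr2b at 9 h (-0.87) and late (-0.52). Quantile normalization ended the Fcgr2b call at 9 h (-1.32) and turned its early value to -0.10. With the compared groups alone, Fcgr2b passed at 4 h (-0.98, adjusted p = 0.0445) and in the F test (0.0414) and missed at 9 h (-1.30, adjusted p = 0.0973). Uncentred footprints put Fcer1g at -0.28, Fcgr1 at 0.17 and Fcgr2b at 0.15.

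Replicates share only a number, and correlations of the LPS and mock replicate differences over genes were 0.51, 0.68, 0.23, 0.65, 0.68 and 0.53 at 1 to 12 h, a hint from the data. With a replicate block the values stayed the same and more calls were made: Fcer1g at 1 h (-0.74), 6 h (0.64) and 9 h (0.54), Fcgr1 early (-0.65), Fcgr2b at 4 h (-0.98), 6 h (-1.08), late minus early (-1.001) and in the F test (adjusted p = 0.000238), and footprints of Fcgr2b (0.98, adjusted p = 0.017) and Fcgr1 (1.00, adjusted p = 0.0114). The block lost no receptor call.

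Leaving out 1 library at a time changed a call or a sign for these results, whose values then ranged as follows. Fcer1g was -1.29 to -0.19 at 1 h, -0.050 to 0.37 at 2 h, -0.11 to 0.22 at 4 h (-0.06 without mock 4 h replicate 1), 0.31 to 0.96 at 6 h, 0.79 to 0.92 at 12 h, -0.56 to -0.016 early, 0.51 to 0.61 in footprints minus RNA, -0.23 to 0.0071 in late mock minus 0 h, and 0.0012 to 0.0645 in the adjusted p of the F test. Fcgr1 was 0.97 to 1.31 at 4 h, -0.92 to -0.38 early, 0.49 to 1.52 in footprints minus RNA and -0.87 to 0.29 in late mock minus 0 h. Fcgr2b was -0.87 to 0.41 at 1 h, -1.80 to -0.80 at 9 h, -0.25 to 0.40 early (-0.05 without mock 2 h replicate 2, -0.07 without LPS 2 h replicate 1), -1.32 to -0.68 late minus early, 0.37 to 1.60 in footprints minus RNA, -1.25 to 0.12 in late mock minus 0 h, and 0.0327 to 0.164 in the F test. Where 1 library was left in a group, it was assumed to vary like the other groups.

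The count of all rows that passed moved by over 1.5 times under some settings. With the replicate block it was 544 at 1 h (main count 128), 871 at 2 h (454), 1796 at 4 h (1193), 1058 early (570) and 1545 late minus early (956). With the compared groups alone it was 21 at 1 h, 231 at 2 h, 411 at 9 h (1262) and 345 early. Without 1 library it was 52 to 329 at 1 h, 255 to 281 at 2 h, 376 early without mock 1 h replicate 1, and 1 in late mock minus 0 h without 0 h replicate 1 (0). For footprints minus RNA (730) it was 1291 uncentred, 2055 or 1597 without a 0 h RNA library and 223 or 227 without a footprint library. The unit holds no depth, so no counting error can be given.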
